A study of Homo sapiens with 14 samples.

Results

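The ZBTB genes encode transcription factors that join an amino-terminal BTB/POZ domain to carboxy-terminal C2H2 zinc fingers. All protein-coding genes whose symbol in the deposited tables was ZBTB followed by a number, with or without a final letter A to C, were taken: 41 of 20345 protein-coding genes, among 57820 genes of all types. They lay on 15 chromosomes, with 9 on chromosome 1, 5 each on chromosomes 6 and 9, and 4 on chromosome 3. Their RNA was followed in HEK293T, a human embryonic kidney cell line, by AMUC-seq. In this method 4-thiouridine (s4U), a uridine analog that cells build into new RNA, is alkylated by acrylonitrile after RNA extraction and is then read as C in place of T. In the conversion experiment, polyadenylated RNA came from cells given s4U whose RNA was then treated with acrylonitrile (s4U plus AN), from cells given s4U whose RNA was left without acrylonitrile (s4U), from cells without s4U whose RNA was treated with acrylonitrile (AN), and from untreated cells and RNA. The stated protocol gave 50 µM s4U for 24 h, whereas the sample labels of the s4U plus AN libraries give 500 µM, so the dose of those libraries is uncertain. In the PDP experiment, cells received 0, 4 or 8 µM PDP, a small molecule used as a ligand of G-quadruplexes, 20 min before 500 µM s4U for 1 h, and all RNA was treated with acrylonitrile, the 0 µM libraries included. Each group had 2 libraries called replicates. Nothing in the labels says that they came from separate cultures, so every p-value measures only the spread between these libraries. That spread was pooled over all groups of an experiment, not taken from the 2 groups compared.

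As background, the BTB domain lets these proteins pair with each other and bind corepressors such as NCOR1 and BCOR, or in some cases the ubiquitin ligase scaffold CUL3, while the zinc fingers read DNA. Most known members silence genes. Several are lineage switches in blood cells, several read methylated CpG sites, and others act in the cell cycle or at telomeres. Kidney-derived cells are not where the blood-cell roles were described. A G-quadruplex is a stacked fold of guanine-rich DNA or RNA held by runs of guanines, and the PDP experiment asked how stabilising this fold affects new transcription.

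Library depth ran from 6074118 fragments (AN, replicate 2) to 22363992 (8 µM PDP, replicate 1), and 68.4 to 90.6% of fragments fell in genes. All 4 acrylonitrile-treated libraries of the conversion experiment were in the lower part of that range, at 68.4 to 70.9%, while in the PDP experiment the 0 µM libraries had 82.6 and 83.0% in genes, the 4 µM libraries 89.7 and 88.8% and the 8 µM libraries 88.3 and 86.5%. The 0 µM libraries were also the shallowest of that experiment. Fragments carrying 1 or more T-to-C mismatches, here called marked, made up 77.3 and 76.6% of gene fragments with s4U plus AN, 13.0 and 10.1% with s4U alone, 7.49 and 7.81% with AN alone and 7.61 and 7.35% in untreated RNA. The 2 s4U libraries differed more from each other than any other pair (chi-square of 58.2 per degree of freedom over genes, against 1.07 to 6.23 for the other pairs). As the spread was pooled, this difference enters the p-values of all contrasts of the conversion experiment, also those without s4U libraries. In contrasts with the s4U libraries their spread is averaged with that of closer pairs. The HEK293T markers VIM, NEFM, PAX2, EYA1, SALL2 and KRT18 were present in every library (lowest value 2.95 FPM, the deposited level scaled to all fragments of a library), and the blood markers CD3E and HBB were at 0 in all of them. Of the markers of MCF7, the other cell line of the study, ESR1, TFF1 and PGR stayed at or below 0.623 FPM, while GREB1 and GATA3 were present (8.18 to 59.6 and 15.4 to 72.0 FPM), and of the liver markers ALB ranged over libraries between 0 and 85.6 FPM, APOA1 between 0.403 and 5.93 and TTR up to 0.193. The blood marker PTPRC reached 0.0763 FPM, and NEFL was not analysed here. These are bulk samples, in which fewer cells with an RNA and less of it per cell cannot be told apart.

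Most ZBTB genes were transcribed at a modest level in untreated cells. On the scale of FPM per kilobase of transcript (FPKM), the highest mean was that of ZBTB48, a telomere-binding factor (17.6 ± 0.394, SD, n = 2), followed by ZBTB7A, a repressor of fetal globin genes (15.7 ± 0.165), ZBTB7B, which directs T cells to the helper lineage (14.6 ± 0.512), the methyl-CpG binder ZBTB4 (12.9 ± 0.0838) and the MYC partner ZBTB17 (12.7 ± 0.291). The first 4 levels stood apart by more than the SD of either neighbour, whereas ZBTB4 and ZBTB17 differed by less than 1 SD of ZBTB17. ZBTB32, a lymphocyte factor, was close to absent (0.0375 FPKM). ZBTB48 stood at percentile 77.1 of all protein-coding genes, so none of the family was among the most abundant transcripts.

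After 24 h with s4U, nearly all RNA of the family was marked. With s4U plus AN the marked share of a gene's fragments had a median of 95.5% over the 35 members with 20 or more fragments in each library, against 91.4% over 12068 protein-coding genes, and 24 of the 35 lay above that all-gene median. In AN libraries without s4U the median share of members was 7.02%. The highest values were those of ZBTB9 (97.1 and 100%), ZBTB37 (98.4 and 97.8%) and ZBTB3 (98.3 and 97.8%), each on few fragments (26 to 61 a library), so their order is not resolved. The lowest was that of ZBTB10, which binds variant telomeric repeats, with 78.7% (95% Wilson interval 76.7 to 80.5%) and 71.1% (69.0 to 73.1%) in the 2 libraries. ZBTB25 followed with 85.4 and 69.0%, on 41 and 29 fragments, and ZBTB44 with 83.1 and 80.6%. The ZBTB10 intervals do not touch, so its 2 libraries differed by more than counting error, which is all that these intervals cover.

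A shorter pulse gave short half-lives for most members. Half-lives were computed from the 0 µM PDP libraries, which had 1 h of s4U, as −T·ln2/ln(1 − labeled/total) with T = 60 min. Labeled means at least 1 T-to-C mismatch, so a new fragment without a converted site counts as old and an old fragment with an error counts as new. The median over 37 members was 1.64 h, against 3.17 h over 12811 protein-coding genes, with interquartile ranges of 1.11 to 2.33 h and 2.04 to 4.71 h. Of these 37 members 33 were below the all-gene median. With the share marked in AN libraries subtracted, the median was 2.06 h for members and 4.82 h for all genes.

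**Figure D1:**
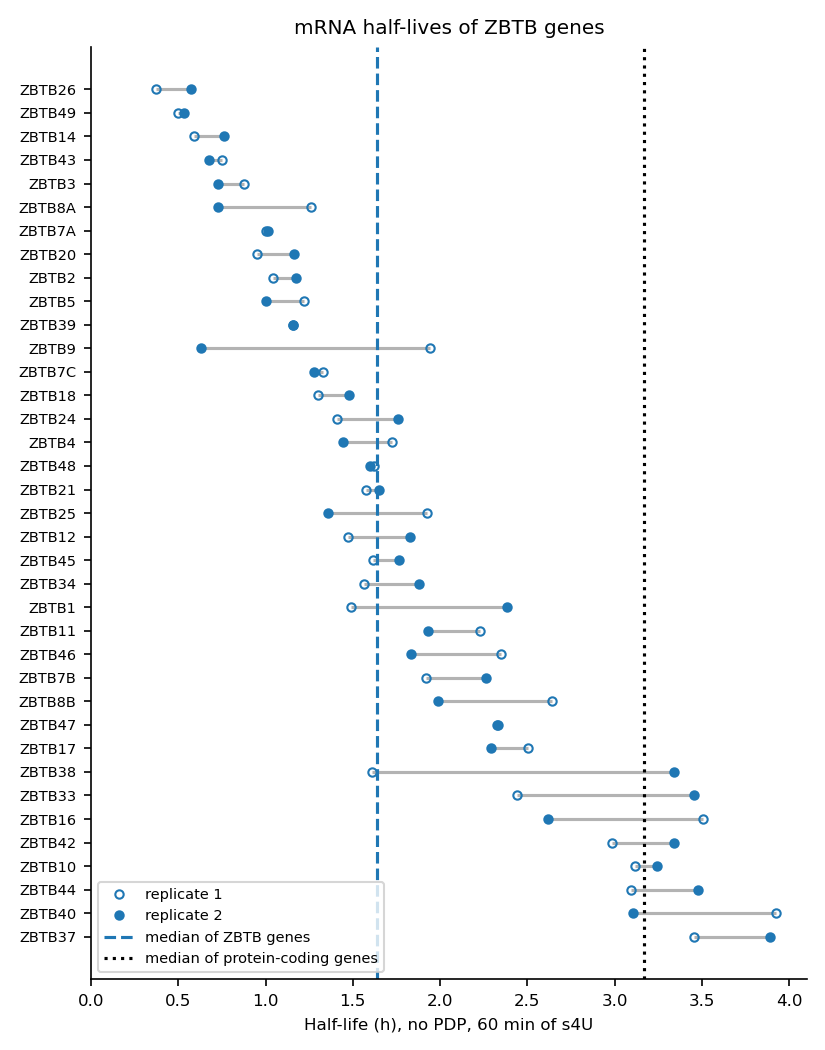
Half-life in hours of each ZBTB gene from the 0 µM PDP libraries, 1 point per library, ordered by the mean of the 2 libraries. ZBTB26 has the shortest mean (0.473 h) and ZBTB37 the longest (3.67 h), and 33 of 37 members lie below the all-gene median of 3.17 h.

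The shortest values belonged to ZBTB26 (0.370 and 0.576 h), ZBTB49, an activator of the cell-cycle inhibitor CDKN1A (0.50 and 0.533 h), ZBTB14, a repressor first found at the MYC promoter (0.591 and 0.763 h), ZBTB43 (0.751 and 0.678 h) and ZBTB3 (0.876 and 0.730 h). ZBTB26 rested on 13 and 10 fragments and ZBTB49 on 20 and 22, so their order is not resolved. ZBTB7A, the member with the most fragments, had 1.00 and 1.01 h. The longest belonged to ZBTB37 (3.45 and 3.89 h), ZBTB40 (3.92 and 3.11 h), ZBTB44 (3.09 and 3.47 h), ZBTB10 (3.12 and 3.24 h) and ZBTB42 (2.98 and 3.34 h), and neighbours in this order overlapped. With the AN share subtracted, the longest were ZBTB37 (8.66 h), ZBTB40 (5.55 h), ZBTB33 (5.36 h), ZBTB16 (4.67 h) and ZBTB42 (4.67 h), ahead of ZBTB10 (4.11 h) and ZBTB44 (3.90 h), so this order depends on that background. ZBTB10 and ZBTB44 had both long half-lives and low shares marked after 24 h, but over 34 members the rank correlation of these measures was −0.02, and that of half-life with GC content of the transcript was 0.02 (37 members), given as descriptions across genes, which are not independent replicates. No half-life was computed for ZBTB6, ZBTB22, ZBTB32 and ZBTB41.

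Many ZBTB transcripts differed in level between AN and untreated libraries, neither of which had s4U. In AN libraries 12 of 40 tested members (30%) were higher and 17 (42.5%) lower at an adjusted p under 0.05 (edgeR quasi-likelihood test, Benjamini-Hochberg over all genes), against 29.1% of all tested genes higher and 30.7% lower. The share higher was thus near that of all genes. With the GC term described below the shares of members were 22.5 and 17.5%, against 17.6 and 17.0% of all genes. The members' median log2 difference was −0.30 and that of all genes −0.07.

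ZBTB7A had 306 and 332 CPM (counts scaled to library size after TMM normalisation) in AN libraries, against 90.7 and 91.9 in untreated libraries (log2 difference 1.80 ± 0.15, SE; adjusted p = 1.15e-05). ZBTB10 had 283 and 313 CPM in AN libraries, against 89.2 and 94.9 in untreated libraries (1.69 ± 0.16). ZBTB42, a gene tied to muscle disease, had 22.3 and 24.1 CPM in AN libraries, against 8.26 and 7.52 in untreated libraries (1.55 ± 0.23). In each of these genes both AN libraries lay well above both untreated ones. The largest rise was that of ZBTB12 (0.914 and 1.97 CPM in AN libraries, against 0.275 and 0.228 in untreated libraries, 2.39 ± 0.79), which rests on few fragments and was not called without AN replicate 2 (1.78) or without either untreated library (2.53 and 2.27). ZBTB12 passed edgeR's filter on low counts only through acrylonitrile-treated libraries, so its rise is no support for one in the family. The counts of members higher in AN libraries, also by GC content, include it.

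ZBTB41 had 1.46 and 1.23 CPM in AN libraries, against 13.8 and 15.1 in untreated libraries (−3.40 ± 0.25, adjusted p = 8.29e-06). ZBTB6 had 0.914 and 1.48 CPM in AN libraries, against 6.54 and 5.70 in untreated libraries (−2.39 ± 0.32). ZBTB33, the methyl-CpG binder also called Kaiso, had 10.8 and 8.61 CPM in AN libraries, against 47.9 and 46.0 in untreated libraries (−2.26 ± 0.16). No AN library overlapped an untreated one for these genes. ZBTB37, whose span overlaps GAS5 on the other strand, had 8.96 and 9.60 CPM in AN libraries, against 25.4 and 28.3 in untreated libraries.

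**Figure D2:**
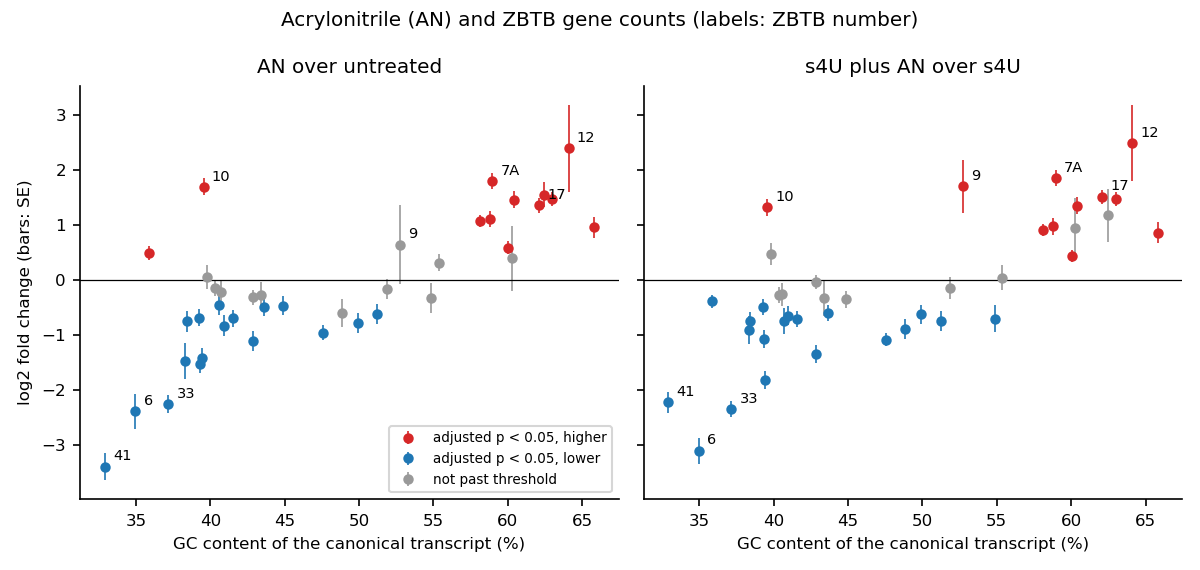
Log2 difference of each of the 40 tested ZBTB genes against the GC content of its canonical transcript, for AN over untreated libraries and for s4U plus AN over s4U libraries. Bars are SE and colour marks members called higher, called lower or not called, and of the 16 members with at least 50% GC, 10 were higher in AN libraries and 1 lower, and of the 24 with less, 2 were higher and 16 lower.

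The direction went with base composition. Members with at least 50% GC had a median of 1.01 and those below it one of −0.69. All genes split the same way: of those with at least 50% GC 52.5% were higher and 6.92% lower (median 0.68), and of those with less 8.03% were higher and 53.6% lower (median −0.77). Among the members the rank correlation with GC was 0.715 over 40 genes, a description across genes that share all 4 libraries. Members' transcripts had a median GC content of 44.9%, against 49.1% over all protein-coding genes. With a smooth term for GC fitted to all genes, 9 members were higher and 7 lower, against 17.6 and 17.0% of all genes. The 2 AN libraries were also the shallowest of the experiment and had fewer fragments in genes, and what these contribute was not tested.

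The same step after s4U labeling gave 11 members higher and 19 lower in s4U plus AN than in s4U libraries, against 31.0 and 34.1% of all genes (with the GC term 9 and 12 members, against 19.9 and 23.7%). The labels give 50 µM s4U for the s4U libraries and 500 µM for the s4U plus AN libraries. If they hold, this contrast mixes s4U dose with acrylonitrile, and these cannot be told apart. ZBTB7A had 344 and 448 CPM in s4U plus AN libraries, against 104 and 115 in s4U libraries (1.85 ± 0.15), and ZBTB17 had 133 and 146, against 43.9 and 53.5 (1.52 ± 0.13). ZBTB6 had 2.23 and 2.02 CPM in s4U plus AN libraries, against 19.5 and 17.5 in s4U libraries (−3.11 ± 0.24). ZBTB33 had 9.43 and 10.6 CPM in s4U plus AN libraries, against 48.8 and 53.0 in s4U libraries (−2.35 ± 0.15). None of these overlapped between the groups. ZBTB41 had 3.67 and 3.36 CPM in s4U plus AN libraries, against 16.5 and 16.7 in s4U libraries, and ZBTB20, a liver repressor of alpha-fetoprotein in mouse, had 12.8 and 15.1, against 45.1 and 53.5. ZBTB12 had 1.05 and 2.35 CPM in s4U plus AN libraries, against 0.471 and 0.125 in s4U libraries, and ZBTB9 had 4.45 and 4.37, against 1.88 and 0.874. Both of these rises rest on few fragments: ZBTB12 was not called without s4U plus AN replicate 2 (1.92), nor ZBTB9 without either s4U plus AN library (1.72 and 1.78). ZBTB12, which passed the filter only through acrylonitrile-treated libraries, is in the counts of higher members here and is no support for a rise in the family. Here 10 of 16 members with at least 50% GC were higher and 17 of the 24 others lower, against 55.3% of all GC-rich genes higher and 58.5% of the others lower, and the rank correlation with GC was 0.712 over 40 members. Of the members called here, ZBTB1, ZBTB45 and ZBTB48 were called in the opposite direction with the GC term (0.79, −0.71 and −0.55).

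ZBTB1 differed in opposite directions with and without s4U after acrylonitrile, in the fit without a GC term. This gene, a factor needed for lymphoid development, had 41.5 and 38.6 CPM in AN libraries, against 30.0 and 27.0 in untreated libraries (0.49 ± 0.13, adjusted p = 0.00706). After s4U it had 27.4 and 27.9 CPM in s4U plus AN libraries, against 35.2 and 37.3 in s4U libraries (−0.39 ± 0.13, adjusted p = 0.0192). In neither contrast did the libraries overlap. The second contrast, and the test of the difference below, may also mix s4U dose with acrylonitrile, as stated above. With the GC term both differences were positive (1.63 in AN against untreated and 0.79 in s4U plus AN against s4U libraries), and both were called. The difference between both effects was −0.88 ± 0.18 (adjusted p = 0.0435, edgeR interaction term), the only call among 40 members, against 1.64% of all genes. A second member was under 0.05 before adjustment. The call was lost with DESeq2 (adjusted p = 0.0578) and with the GC term in edgeR (0.0534). It was also lost without any 1 of the untreated, AN or s4U plus AN libraries (−0.953 to −0.715), but not without either s4U library (−0.92 and −0.84). More of all genes were also called in the fits without an s4U library than in the main fit, so these fits add no support to the ZBTB1 call.

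Growth for 24 h with s4U was compared next. In s4U against untreated libraries, 16 of 40 members were higher and 10 lower, against 35.8 and 34.7% of all genes. Among cell-cycle members, ZBTB49 had 17.3 and 20.1 CPM in s4U libraries, against 5.09 and 5.85 in untreated libraries (1.77 ± 0.18, adjusted p = 1.67e-05), and ZBTB5, a repressor of CDKN1A, had 61.4 and 67.0, against 24.7 and 25.4 (1.36 ± 0.12). ZBTB6 had 19.5 and 17.5 CPM in s4U libraries, against 6.54 and 5.70 in untreated libraries (1.59 ± 0.19), and ZBTB43 had 52.4 and 47.9, against 17.1 and 19.3 (1.46 ± 0.15). In all 4 genes the lower s4U library exceeded the higher untreated one.

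ZBTB42 fell furthest, with 0.314 and 0.625 CPM in s4U libraries, against 8.26 and 7.52 in untreated libraries (−3.99 ± 0.32, adjusted p = 3.35e-06). ZBTB7C, the third ZBTB7 paralog, had 3.77 and 3.00 CPM in s4U libraries, against 22.5 and 21.2 in untreated libraries (−2.70 ± 0.18). ZBTB8B had 3.30 and 3.12 CPM in s4U libraries, against 13.8 and 12.8 in untreated libraries (−2.05 ± 0.25). Its span, like that of ZBTB8A, overlaps RP1-27O5.3 on the same strand (mean 17.4 FPM, against 5.12 for ZBTB8B and 11.7 for ZBTB8A), so its fragments cannot be told apart from those of that gene. No library of these 3 genes overlapped between the groups. ZBTB25 had 6.75 and 5.62 CPM in s4U libraries, against 21.7 and 22.9 in untreated libraries (−1.85 ± 0.17). Smaller falls were called for ZBTB46, a marker of classical dendritic cells (−1.60), ZBTB16, the PLZF gene fused to RARA in some promyelocytic leukemias (−1.19), and ZBTB7B (−0.81). ZBTB7A was not called.

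**Figure D3:**
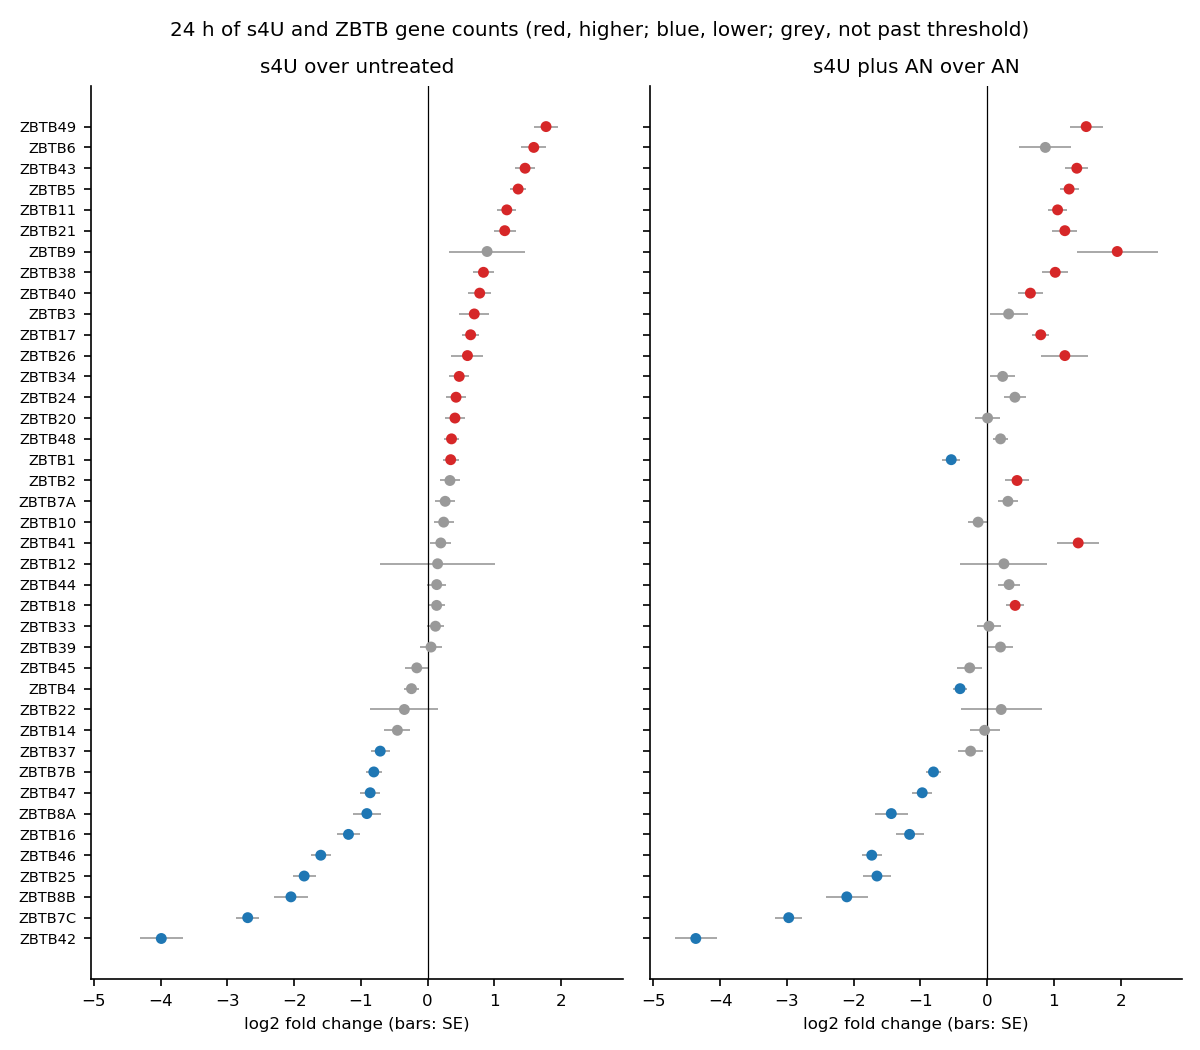
Log2 differences of the ZBTB genes after 24 h with s4U, for s4U over untreated libraries and for s4U plus AN over AN libraries, with SE as bars. ZBTB42 lies lowest in both (−3.99 and −4.37), ZBTB49 highest in the first (1.77) and ZBTB9 highest in the second (1.95).

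With acrylonitrile on both sides, 13 members were higher and 11 lower in s4U plus AN than in AN libraries, against 33.2 and 31.1% of all genes. These libraries differ from those of the s4U against untreated contrast, but each also enters an acrylonitrile contrast above. ZBTB42 had 0.786 and 1.51 CPM in s4U plus AN libraries, against 22.3 and 24.1 in AN libraries (−4.37 ± 0.32), and ZBTB7C had 3.54 and 3.36, against 26.7 and 27.8 (−2.97 ± 0.20). ZBTB8B had 3.41 and 1.51 CPM in s4U plus AN libraries, against 11.5 and 10.3 in AN libraries (−2.10 ± 0.31), and ZBTB46 had 20.3 and 18.7, against 64.5 and 65.0 (−1.73 ± 0.15). ZBTB49 had 10.3 and 9.75 CPM in s4U plus AN libraries, against 3.11 and 4.18 in AN libraries (1.49 ± 0.25), and ZBTB43 had 29.7 and 36.1, against 13.9 and 11.8 (1.34 ± 0.17). No library of one group reached the range of the other in these genes. ZBTB41 had 3.67 and 3.36 CPM in s4U plus AN libraries, against 1.46 and 1.23 in AN libraries (1.36 ± 0.31), and ZBTB9 had 4.45 and 4.37, against 1.83 and 0.246 (1.95 ± 0.61), a call lost without AN replicate 2 (1.3) or either s4U plus AN library (1.98 and 2.04). Over the 40 members the s4U differences had rank correlations with GC of −0.269 and −0.268 (s4U over untreated and s4U plus AN over AN).

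The promoters of ZBTB7A, ZBTB7B and ZBTB1 are printed as examples that hold a guanine-rich motif, since PDP is a ligand of guanine-rich folds. Not every member holds it, as counted below, and a part of these sequences in the PDP results was not tested. The windows are from RefSeq (GRCh38.p14), run 5′ to 3′ on the gene's strand and hold 250 bases before and 50 after an annotated start. Capitals mark matches to GGGNGGGNGGGNGGG or, on the other strand, CCCNCCCNCCCNCCC, where each run has 3 or more letters and each N stands for 1 to 7 bases. A match that starts inside the one before it on the same strand is neither counted nor marked. ZBTB7A lies at chr19:4066850-4067149 on the minus strand and holds 2 matches, ZBTB7B at chr1:155002399-155002698 on the plus strand with 3, and ZBTB1 at chr14:64503637-64503936 on the plus strand with 1 on each strand.
ZBTB7A: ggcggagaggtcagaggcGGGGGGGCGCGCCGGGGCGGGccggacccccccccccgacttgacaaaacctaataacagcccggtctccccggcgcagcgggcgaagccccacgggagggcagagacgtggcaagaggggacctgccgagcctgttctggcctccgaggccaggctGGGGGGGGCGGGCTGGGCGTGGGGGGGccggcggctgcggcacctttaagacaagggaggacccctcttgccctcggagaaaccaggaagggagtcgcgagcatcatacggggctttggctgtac
ZBTB7B: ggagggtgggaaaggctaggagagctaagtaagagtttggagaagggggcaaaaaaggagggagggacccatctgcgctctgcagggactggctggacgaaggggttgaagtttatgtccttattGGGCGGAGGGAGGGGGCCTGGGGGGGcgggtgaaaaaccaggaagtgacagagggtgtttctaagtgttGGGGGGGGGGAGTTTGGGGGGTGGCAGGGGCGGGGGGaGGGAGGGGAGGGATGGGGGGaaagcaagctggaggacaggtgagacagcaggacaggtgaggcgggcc
ZBTB1: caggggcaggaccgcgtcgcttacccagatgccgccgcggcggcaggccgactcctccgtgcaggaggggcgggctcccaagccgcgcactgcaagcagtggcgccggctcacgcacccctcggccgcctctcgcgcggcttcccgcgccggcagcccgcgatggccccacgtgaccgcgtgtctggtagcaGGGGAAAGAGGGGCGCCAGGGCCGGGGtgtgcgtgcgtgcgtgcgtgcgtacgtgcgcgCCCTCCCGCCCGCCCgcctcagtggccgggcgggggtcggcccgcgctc
Labeled RNA of ZBTB7A and ZBTB7B was lower after PDP and that of ZBTB1 higher, as described next. ZBTB1 and ZBTB25 start back to back: a ZBTB25 window at chr14:64503789-64504088 shares 148 bases with the ZBTB1 window printed here.

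Labeled RNA of 10 members was lower with PDP at 8 µM, a share near that of all genes. In labeled RNA, scaled to all fragments of a library, 6 of 38 tested members were higher and 10 lower at 8 µM than at 0 µM, against 10.3 and 27.5% of all genes, and at 4 µM 2 were higher and 8 lower, against 9.24 and 19.9%. Both contrasts use the same 0 µM libraries. Median log2 differences at 8 µM were −0.14 for members and −0.11 for all genes and 26.3% of members were lower. The 0 µM libraries were also the shallowest and had fewer fragments in genes, and the part of this in the PDP results was not tested.

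Labeled RNA of ZBTB7A had 154 and 158 FPM at 0 µM, 92.6 and 90.8 at 4 µM, and 74.9 and 84.4 at 8 µM (8 against 0 µM −0.97 ± 0.06, adjusted p = 1.62e-37). ZBTB17, also called MIZ1, had 16.6 and 16.3 FPM at 0 µM, 10.0 and 8.96 at 4 µM, and 6.66 and 6.80 at 8 µM (−1.29 ± 0.14). ZBTB7B had 17.7 and 14.7 FPM at 0 µM, 11.0 and 11.3 at 4 µM, and 9.08 and 8.76 at 8 µM (−0.85 ± 0.13). In all 3 genes every library with PDP was below every library without it. ZBTB4 had 28.6 and 33.4 FPM at 0 µM, 24.0 and 23.3 at 4 µM, and 17.0 and 17.9 at 8 µM (−0.83 ± 0.10). ZBTB12 had 1.23 and 0.568 FPM at 0 µM, 0.406 and 0.537 at 4 µM, and 0.179 and 0.218 at 8 µM (−2.13 ± 0.60). It passed the filter of 0.5 FPM only through the 0 µM libraries, rests on few fragments and was not called without 0 µM replicate 1 (−1.5). The lower calls at 8 µM counted above include ZBTB12, whose fall is no support for one in the family. Among telomere-binding members, ZBTB48 had 10.4 and 11.5 FPM at 0 µM, 7.62 and 7.61 at 4 µM, and 6.89 and 6.26 at 8 µM (−0.73 ± 0.15). ZBTB10 had 39.5 and 38.7 FPM at 0 µM, 25.2 and 27.9 at 4 µM, and 27.4 and 28.4 at 8 µM (−0.49 ± 0.09), so that its 4 and 8 µM libraries overlapped. Falls were also called at 8 µM for ZBTB47 (−0.74), ZBTB45 (−0.57) and ZBTB18, a repressor in developing cortical neurons (−0.49). The ZBTB18 call was lost without 0 µM replicate 1 (−0.43) or 8 µM replicate 1 (−0.38). At 4 µM the calls of ZBTB18 (−0.41) and ZBTB7B (−0.53) were lost without 0 µM replicate 1 (−0.36 and −0.39), those of ZBTB4 (−0.39) and ZBTB48 (−0.53) without 0 µM replicate 2 (−0.27 and −0.45), and that of ZBTB18 without 4 µM replicate 2 (−0.28).

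**Figure D4:**
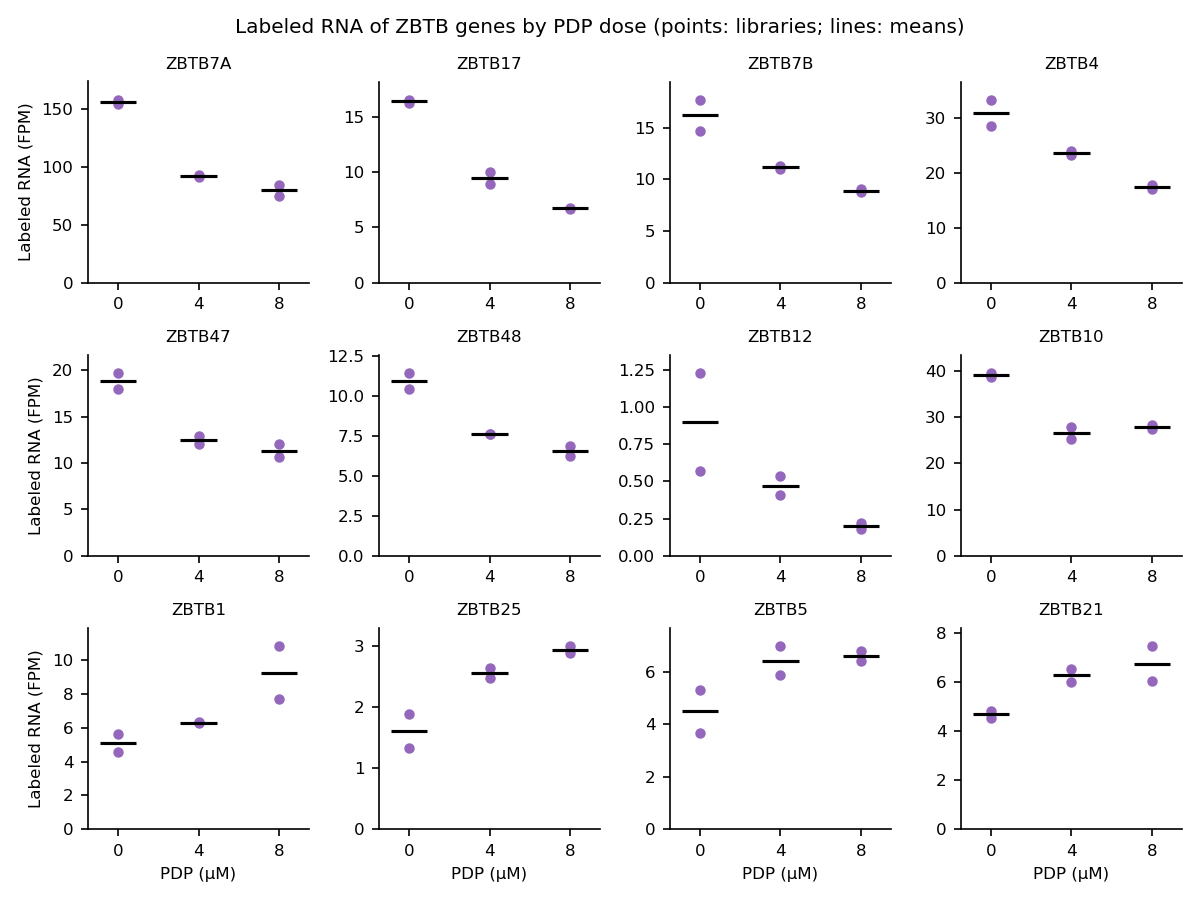
Labeled FPM of 12 ZBTB genes in each library at 0, 4 and 8 µM PDP. ZBTB7A lies at 154 and 158 FPM at 0 µM and at 74.9 and 84.4 at 8 µM, and ZBTB1 lies at 5.63 and 4.54 FPM at 0 µM and at 7.69 and 10.8 at 8 µM.

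Higher labeled levels were called for 6 members at 8 µM. ZBTB25 had 1.33 and 1.89 FPM at 0 µM, 2.48 and 2.64 at 4 µM, and 3.00 and 2.88 at 8 µM (0.86 ± 0.29). ZBTB1 had 5.63 and 4.54 FPM at 0 µM, 6.26 and 6.36 at 4 µM, and 7.69 and 10.8 at 8 µM (0.85 ± 0.17). These head-to-head neighbours did not overlap between 0 and 8 µM, but ZBTB25 also overlaps MTHFD1, a far more abundant gene on the other strand (mean 192 FPM, against 7.07 for ZBTB25), and whether counting used strand is not stated. ZBTB5 had 3.68 and 5.30 FPM at 0 µM, 6.98 and 5.87 at 4 µM, and 6.44 and 6.80 at 8 µM (0.55). ZBTB21 had 4.81 and 4.54 FPM at 0 µM, 6.53 and 6.00 at 4 µM, and 6.04 and 7.46 at 8 µM (0.52). The methyl-CpG binder ZBTB38 was called at 0.68, with overlapping libraries (2.87 and 1.42 FPM at 0 µM, 2.82 and 4.08 at 8 µM), and ZBTB2 at 0.35. Of these 6 calls, 5 were lost in some fit with 1 library left out. Without 0 µM replicate 1 the calls of ZBTB25 (0.64), ZBTB5 (0.32) and ZBTB21 (0.56) were lost. ZBTB21 was also lost without 0 µM replicate 2 (0.48) or 8 µM replicate 2 (0.37), and ZBTB5 without 8 µM replicate 2 (0.51). ZBTB38 and ZBTB2 were lost without 0 µM replicate 2 (0.25 and 0.18) or 8 µM replicate 2 (0.41 and 0.25), while ZBTB1 was called in every such fit. At 4 µM the 2 members called higher, ZBTB38 (0.85) and ZBTB5 (0.51), were lost without 4 µM replicate 1 (0.74 and 0.38), and without 0 µM replicate 2 (ZBTB38, 0.41) or replicate 1 (ZBTB5, 0.28).

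Of the 15 tested members with at least 50% GC, 8 were lower at 8 µM and none higher (median −0.73), and of the 23 with less GC 2 (ZBTB10 and ZBTB18) were lower and 6 higher (median 0.18). The 8 include ZBTB12, which passed the filter only through the 0 µM libraries. ZBTB6, 1 of the 23, passed it only through the PDP libraries (0.343 FPM at 0 µM). It enters the medians and the rank correlation of labeled RNA. Of all genes with at least 50% GC 46.4% were lower and 4.62% higher (median −0.40), and of those with less 8.70% were lower and 15.9% higher (median 0.16). The rank correlation of the 8 µM difference with GC was −0.717 over 38 members, as a description. With the GC term, which was added after seeing the data, 1 member was higher and 8 lower, against 8.00 and 17.5% of all genes. Between 8 and 4 µM, 4 of 38 members were called, against 5.62% of all genes: ZBTB17 (−0.50), ZBTB4 (−0.44) and ZBTB7A (−0.21) were lower and ZBTB1 (0.54) higher. ZBTB1 was lost without 8 µM replicate 2 (0.28) or 4 µM replicate 1 (0.52), and ZBTB17 without 4 µM replicate 1 (−0.41) or 8 µM replicate 1 (−0.48). ZBTB7A was lost without 8 µM replicate 1 (−0.12) and without any 1 of the 0 and 4 µM libraries, with values of −0.22 to −0.19, so ZBTB4 alone kept its call in every fit with a library left out.

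The study's own rule for lowered transcripts asks for a labeled decrease of at least 1.5-fold (log2 of −0.58 or less) in both replicates at both doses. Of the 14 members with enough expression, ZBTB7A and ZBTB17 met it, as did 657 of 6756 protein-coding genes. ZBTB47 and ZBTB48 came nearest among the rest, with weakest decreases of −0.48 and −0.46 on the log2 scale. ZBTB17 and ZBTB7A had GC contents of 62.1 and 59.0%.

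Guanine runs stood in promoters of members that moved in either direction. RefSeq windows were matched for 35 members (68 windows), of which 29 windows (42.6%) in 22 members held the motif above, against 25% of 35116 windows of the same length genome-wide. Median GC of the windows was 62.3% for members and 58.7% for all. The motif was present for 6 of 8 matched members lower at 8 µM, 6 of 6 higher and 10 of 19 not called. ZBTB10 and ZBTB17, also lower, had no matched window, and ZBTB1 and ZBTB25, both higher, share part of theirs, so their counts are not independent. A match describes letters only.

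Total RNA moved the other way on the same scale. At 8 µM 28 of 39 members were higher and 1 lower than at 0 µM, against 51.8 and 8.71% of all genes, and at 4 µM 29 were higher and 1 lower, against 51.4 and 6.99%. Both counts of higher members include ZBTB6 and ZBTB41, which passed the filter only through the PDP libraries. These genes also enter the medians, the rank correlation and the alternative fits given below. The median of all genes was itself shifted by 0.33 at 8 µM and 0.32 at 4 µM, beside member medians of 0.65 and 0.59. With TMM normalisation, which removes that shift, 22 members were higher and 7 lower at 8 µM, against 27.8 and 26.0% of all genes, and 18 and 7 at 4 µM, against 26.2 and 24.9%. With the GC term, added after seeing the data, 15 were higher and 4 lower at 8 µM, against 14.7 and 24.8% of all genes. The members lower at 8 µM under TMM were ZBTB12, ZBTB42, ZBTB10, ZBTB17, ZBTB7A, ZBTB47 and ZBTB4, of which ZBTB12 alone was also called lower without it. ZBTB1 was called higher at 4 µM (0.41) and in the opposite direction with the GC term (−0.30).

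ZBTB6 had 0.409 and 0.379 total FPM at 0 µM, 1.08 and 1.34 at 4 µM, and 1.43 and 1.58 at 8 µM (8 against 0 µM 1.91). ZBTB41 had 0.921 and 0.852 FPM at 0 µM, 2.52 and 2.82 at 4 µM, and 3.13 and 3.27 at 8 µM (1.84). ZBTB5 had 8.49 and 10.6 FPM at 0 µM, 20.4 and 18.3 at 4 µM, and 20.7 and 20.8 at 8 µM (1.12). All 3 had every PDP library above both 0 µM libraries. ZBTB6 and ZBTB41, whose 0 µM means (0.394 and 0.887 FPM) were under the filter of 1 FPM, passed it only through the PDP libraries, so their differences are no support for a rise in the family. Both were also among the members lower in AN than in untreated libraries, and all libraries of the PDP experiment had acrylonitrile treatment. ZBTB26 had 1.33 and 0.947 FPM at 0 µM, 2.93 and 1.93 at 4 µM, and 2.46 and 3.70 at 8 µM (1.42). ZBTB34 had 6.86 and 8.90 FPM at 0 µM, 16.5 and 15.6 at 4 µM, and 15.9 and 18.3 at 8 µM. ZBTB7A had 309 and 318 total FPM at 0 µM, 287 and 293 at 4 µM, and 294 and 308 at 8 µM, the 1 member lower at 4 µM (−0.11), while ZBTB12 was the 1 lower at 8 µM (−0.84), with 3.27 and 1.80 FPM at 0 µM and 1.43 and 1.36 at 8 µM. The ZBTB12 call was lost without 0 µM replicate 1 (−0.36), and the ZBTB7A call without any 1 of the 0 or 4 µM libraries (−0.13 to −0.09). ZBTB26 was called at 4 µM (1.1) but not without 0 µM replicate 2 (0.86) or 4 µM replicate 1 (0.76). Between 8 and 4 µM no member was called (edgeR, 1 member with an unadjusted p under 0.05, DESeq2 also 0 calls), against 0.323% of all genes. Over 39 members the rank correlation with GC at 8 µM was −0.643.

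Set against unlabeled RNA of the same library, labeled RNA fell in most of the family. At 8 µM 28 of 38 members had a lower labeled-to-unlabeled ratio and none a higher one, against 54.0% of all genes lower, and at 4 µM 27 were lower, against 45.9%. The 28 include ZBTB12, which passed the filter on labeled RNA only through the 0 µM libraries. Its ratio is no support for a fall in the family. ZBTB6, which passed that filter only through the PDP libraries, is among the 38 tested and enters the medians of the ratio. In edgeR 31 and 29 members had an unadjusted p under 0.05 at 8 and 4 µM, and each of these differences was negative.

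**Figure D5:**
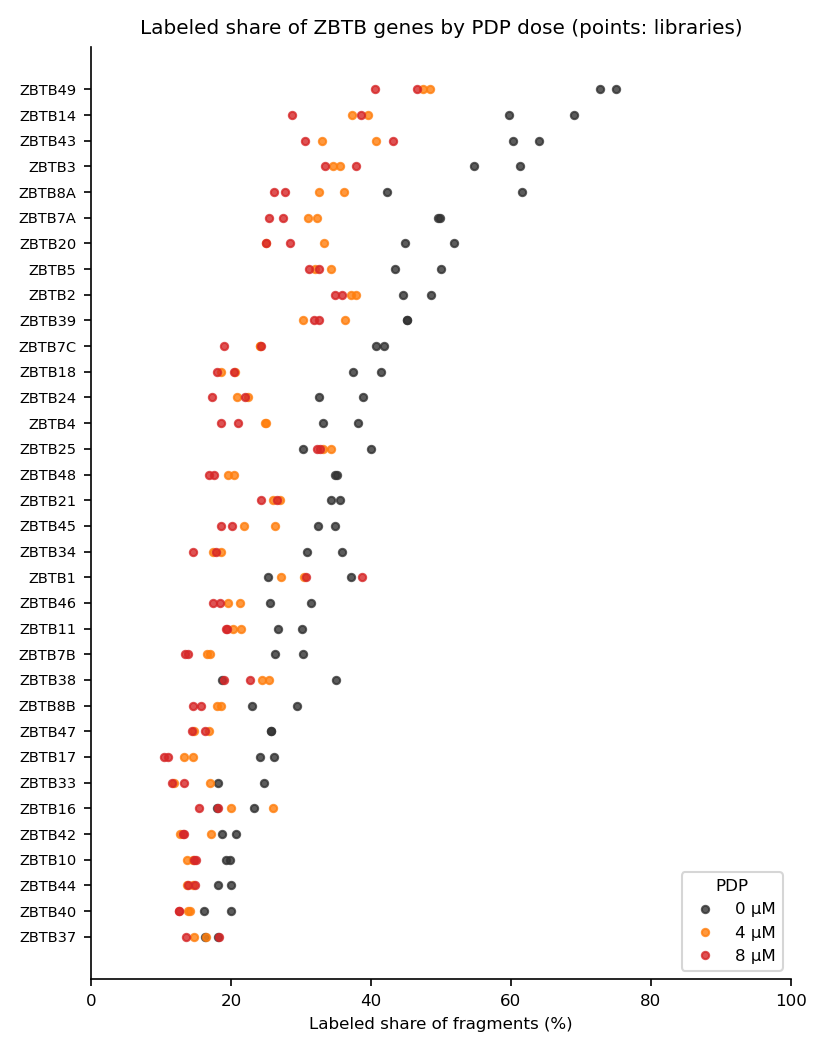
Labeled share of fragments in percent for the ZBTB genes that had 20 or more fragments in every library, at 0, 4 and 8 µM PDP, 1 point per library. ZBTB7A lies at 49.9 and 49.6% at 0 µM, 32.3 and 31.0% at 4 µM and 25.5 and 27.4% at 8 µM.

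Labeled shares of ZBTB7A were 49.9 and 49.6% at 0 µM, 32.3 and 31.0% at 4 µM, and 25.5 and 27.4% at 8 µM (ratio at 8 against 0 µM −1.46 on the log2 scale). ZBTB17 had 24.2 and 26.1% at 0 µM, 14.6 and 13.3% at 4 µM, and 10.5 and 11.0% at 8 µM (−1.48). ZBTB49 had 75 and 72.7% at 0 µM, 48.5 and 47.4% at 4 µM, and 40.6 and 46.6% at 8 µM (−1.86). These genes had no overlap between any dose and 0 µM. ZBTB14 had 69.0 and 59.7% at 0 µM, 39.6 and 37.3% at 4 µM, and 38.6 and 28.7% at 8 µM (−1.76), and ZBTB43 had 60.3 and 64.0%, 40.7 and 33.1%, and 30.5 and 43.2% (−1.54). ZBTB8A had 42.3 and 61.5% at 0 µM, 36.2 and 32.5% at 4 µM, and 26.2 and 27.7% at 8 µM (−1.57), and ZBTB12 had 37.5 and 31.6%, 27.3 and 27.3%, and 12.5 and 16.0% (−1.70). The ZBTB12 ratio was not called without any 1 of the 0 and 8 µM libraries (−1.89 to −1.47), and at 4 µM the ZBTB49 ratio was not called without either 0 µM library (−1.53 and −1.69). The labeled share of ZBTB1 was 37.2 and 25.3% at 0 µM, 27.1 and 30.4% at 4 µM, and 30.8 and 38.8% at 8 µM, without separation. Unlike the labeled level, the ratio showed little order by GC (rank correlation −0.192 over 38 members): 12 of 15 GC-rich members and 16 of 23 others were lower at 8 µM, against 64.1% of all GC-rich genes and 44.5% of the others.

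The number of ratio calls rests on the scaling. All genes together had a median ratio difference of −0.58 at 8 µM, beside −1.02 for members, and the marked share of all gene fragments was 17.2 and 17.2% at 0 µM, 13.8 and 13.5% at 4 µM, and 12.5 and 13.2% at 8 µM. With TMM normalisation of labeled and unlabeled columns, added after seeing the data, 13 members were lower and 1, ZBTB1, higher (0.84) at 8 µM, against 10.2% of all genes lower, and 7 were lower at 4 µM, against 5.69%. Member medians were then −0.45 and −0.31.

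Few members' windows next to the gene passed the filter. Downstream windows of 4000 bp did so for 3 members. At 8 µM 2 of them were higher and 1 lower, against 11.5 and 24.3% of all windows, and at 4 µM 1 was lower, against 18.2%. The window after ZBTB32 had 5.32 and 4.92 FPM at 0 µM, 1.80 and 2.15 at 4 µM, and 1.61 and 1.63 at 8 µM (−1.65 ± 0.24), and it overlaps KMT2B on the same strand, so these fragments may belong to either. After ZBTB8A there were 0.614 and 0.284 FPM at 0 µM, 0.856 and 0.582 at 4 µM, and 1.12 and 0.980 at 8 µM (1.24 ± 0.51), and after ZBTB7A 1.84 and 2.84, 2.70 and 3.54, and 3.26 and 3.97 (0.61 ± 0.25). The ZBTB8A window passed the filter only through the PDP libraries, and that of ZBTB7A overlaps AC016586.1 on the same strand, so its fragments may belong to either. Both rises were close to the threshold (adjusted p = 0.0475 for ZBTB8A and 0.0434 for ZBTB7A) and both were lost with DESeq2, without 8 µM replicate 2 (1.32 for ZBTB8A and 0.47 for ZBTB7A) and, for ZBTB7A, without 0 µM replicate 1 (0.34). ZBTB8A was also lost without 0 µM replicate 2 (0.77), 8 µM replicate 1 (1.13) or either 4 µM library (1.24). Upstream windows were tested for 6 members, a fit added after seeing the data, and ZBTB37, whose start overlaps GAS5 on the other strand, was higher at both doses, with 0.921 and 1.70 FPM at 0 µM, 2.84 and 2.69 at 4 µM, and 3.00 and 3.16 at 8 µM, against 3.66% of all windows higher at 4 µM and 6.97% at 8 µM.

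Genes that work with the family were counted on the same fits. In labeled RNA at 8 µM, other BTB/POZ zinc finger genes had 1 higher and 3 lower of 8 tested, corepressors and other partners of BTB domains 2 higher and 10 lower of 23, and BTB adaptors of CUL3 without zinc fingers 2 higher and 10 lower of 28, against 10.3 and 27.5% of all genes. HIC2, a zinc finger relative, was lower (−0.97), as were MTA1 and GPS2, subunits of the NuRD and NCOR1 complexes (−0.82 and −0.88), and KLHL22, KLHL25 and KLHL21 of the CUL3 adaptors (−0.96, −0.91 and −0.84). In total RNA at 8 µM 5 of 8, 15 of 23 and 17 of 29 were higher and 0, 4 and 2 lower, against 51.8 and 8.71% of all genes. After acrylonitrile alone, TBL1XR1, a subunit of the NCOR1 complex, was lower (−1.65). After 24 h with s4U, 12 of 29 CUL3 adaptors were higher and 9 lower, against 35.8 and 34.7% of all genes, with KBTBD4 at 2.15 and RHOBTB2 at −2.77.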

How the data were processed

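The members and gene lists were chosen with earlier results of these data known. Polyadenylated RNA of 14 HEK293T libraries, 8 of the conversion and 6 of the PDP experiment, was sequenced from directional libraries. The authors trimmed reads with cutadapt 1.18, kept 1 read per identical sequence, removed rRNA, mapped to GRCh37 (hg19) with HISAT2 2.1.0 and left out mismatches at known or called SNPs or with a base quality under 41. The tool that assigned fragments to genes, and whether it used strand, is not stated in the sources used here. The deposited fragment counts per gene, by number of T-to-C mismatches in the conversion experiment and as total, labeled, upstream and downstream counts in the PDP experiment, were tested as they stand. The deposited FPM values are RPM, here fragments scaled to the total of all fragments of a library, computed by the authors. Columns of half-lives were also deposited and served only to check the formula.

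Counts were tested with edgeR 4.0.16 (quasi-likelihood) under R 4.3.3, with Benjamini-Hochberg adjustment over all genes and a threshold of 0.05. The conversion fit held all 8 libraries, TMM normalisation and edgeR's filter on low counts. The PDP fits held all 6 libraries with the authors' library sizes, a mean of at least 1 FPM total and, for labeled RNA, 0.5 FPM labeled, and windows a mean of at least 0.5 FPM. Labeled and unlabeled counts were compared by an interaction with the library as a block. Scaling to all fragments means that a shift shared by most genes enters every total and labeled difference. GC content and length were those of the Ensembl canonical transcript (GRCh37), and the GC term was a spline of 6 degrees of freedom. Values per library were given for up to 4 members with the largest rise and 4 with the largest fall in each comparison whose libraries did not overlap between groups, for the shortest and longest 5 half-lives, for the highest and lowest 3 shares marked after 24 h and for members meeting the rule of the methods. Other genes and values, such as labeled FPM of ZBTB38 at 8 µM and labeled shares of ZBTB1, were chosen after they were seen. Alternatives were limma 3.58.1 on log2(FPM + 0.1) or log2(FPM + 1), DESeq2 1.42.0, other scalings and filters, a GC term, a replicate block and leaving out each library. On simulated counts the fits of AN against untreated and of total and labeled RNA at 8 µM recovered 29.85 to 58.21% of 1.5-fold changes. Of 2-fold changes they recovered 71.64 to 91.04%. Unlike these data, the simulated counts had a fixed spread, no shift with GC and few changed genes. They therefore cannot show how often the calls given here are right.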

Additional observations from a re-analysis of the deposited data

Results flagged for a closer look

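ZBTB1 stood out because its response to acrylonitrile differed with and without s4U in a test of that difference (−0.88 on the log2 scale, adjusted p = 0.0435 in edgeR), and because both libraries of each pair moved in opposite directions. In s4U plus AN against s4U libraries the difference was −0.39, and in AN against untreated libraries it was 0.49. With the GC term these were 0.79 and 1.63, both positive, and the test of the difference was not past the threshold (adjusted p = 0.0534). Its span overlaps that of ZBTB25 on the other strand, and the part of that overlap in the result was not tested. The uncertain s4U dose of the s4U plus AN libraries also enters this result and cannot be told apart from acrylonitrile.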

How the results depend on the processing

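Over all called members, 3279 values came from alternatives: 2810 kept their direction and their side of the threshold, 405 kept only their direction and 64 changed sign, of which 28 with the GC term, 19 with the GC term and replicate block, 9 with TMM and 8 with DESeq2 size factors. Of the 64, 8 were called the other way: in s4U plus AN against s4U libraries ZBTB1, ZBTB45 and ZBTB48 with the GC term (0.79, −0.71 and −0.55) and with the block added (0.79, −0.70 and −0.55), ZBTB44 with both (0.46), and ZBTB1 total RNA at 4 µM with the GC term (−0.30). The ZBTB1 interaction gave 0 calls without the count filter, with DESeq2, with the GC term and with the GC term and replicate block, and 0 to 1 over the libraries left out (0 without either untreated, AN or s4U plus AN library). Calls for AN against untreated numbered 16 with the GC term (9 higher and 7 lower of 40 members, against 17.6 and 17.0% of all genes). With the GC term and replicate block they numbered 15 (8 higher and 7 lower, against 17.4 and 17.1%). With the GC term, total RNA had 13 calls at 4 µM (9 higher and 4 lower of 39 members, against 14.3 and 22.8% of all genes). At 8 µM it had 19 (15 higher and 4 lower, against 14.7 and 24.8%). Labeled RNA with the GC term had 6 calls at 4 µM, 9 at 8 µM (against 8.00% of all genes higher and 17.5% lower) and 1 between 8 and 4 µM. DESeq2 gave 10 labeled calls at 8 µM. Between 8 and 4 µM, labeled calls were 2 with TMM, 2 with DESeq2 size factors and 1 with DESeq2, and 1 to 3 with a library left out (1 without 4 µM replicate 1, 2 without 8 µM replicate 1), and total calls were 0 to 1 (1 without 8 µM replicate 1). Downstream windows at 8 µM had 1 call with DESeq2, 1 without the filter and 1 to 2 with a library left out (1 without 8 µM replicate 2). Ratio calls with TMM were 7 at 4 µM and 14 at 8 µM, and at 4 µM 17 to 27 with a library left out (17 without 0 µM replicate 2). The share marked after 24 h had a median of 84.6% at 2 or more mismatches, 94.7% at 100 or more fragments and 94.3 to 95.4% with 1 replicate left out. The half-life median was 2.06 h after background subtraction and 1.61 to 1.76 h with 1 replicate left out. The rule for lowered transcripts was met by 5 members at 1.3-fold, 0 at 2-fold and 6 at 8 µM alone, against 1561, 26 and 1497 protein-coding genes. In the main setting 14 members and 6756 protein-coding genes could meet it, and 2 and 657 did. Counts given here without a share of all genes describe the fits and are not results about the family.

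Replicate numbers did not pair the samples: deviations of same-numbered libraries correlated between −0.02 and 0.07. With a replicate block, 28 of 29 AN calls and 16 of 16 labeled calls at 8 µM remained, and total RNA at 4 µM had 29 calls.

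The GC term of the PDP fits, TMM for the ratio and the upstream fit were chosen after seeing the data. Depth limits ZBTB6, ZBTB9, ZBTB12, ZBTB22 and ZBTB32, which had few fragments. For a member not called, a change is not excluded.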
